A study of Mus musculus with 18 samples.

Results

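The 10 genes described here belong to eicosanoid and platelet-activating factor (PAF) metabolism. They were chosen by symbol and were followed across 18 RNA-Seq libraries of mouse bone marrow-derived macrophages (BMDMs). They were the phospholipase gene Pla2g4a, the cyclooxygenase genes Ptgs1 and Ptgs2, the prostaglandin E synthase gene Ptges, the prostaglandin E receptor genes Ptger2 and Ptger4, the leukotriene genes Alox5, Alox5ap and Ltc4s, and the PAF acetylhydrolase gene Pla2g7. All 10 were among the 22852 gene rows of the count files and all 10 were among the 11305 genes that passed the filter on low counts. The BMDMs came from C57BL/6 mice and were grown in L929-conditioned medium, and each of 6 groups had 3 biological replicates. Cells were left unstimulated, primed with LPS at 100 ng/ml for 24 h (LPS-primed), given LPS at 10 ng/ml for 3 h only (LPS-stimulated), or primed at 100 ng/ml for 24 h and then re-exposed to 10 ng/ml for 3 h in fresh medium (LPS-tolerant). LPS-primed and LPS-tolerant cells were also made with 25 µM carboplatin, a platinum compound that forms adducts with DNA. According to the study's methods carboplatin preceded the priming LPS, whereas the sample labels name LPS first. Nothing in the labels says which replicates came from which mouse, so the p-values measure the spread between these samples.

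Between 6869667 and 14708099 reads per library were counted on genes (median 8986463), and no pair of replicates agreed within sampling noise. Levels are given as CPM, the read count scaled to a common library size. The macrophage label was matched by all 10 listed markers, led by Lyz2, which had a mean of 1 CPM or more in every group. Markers of other marrow cells were checked as lists of 10. Of the mast cell and basophil markers, Cpa3, Ms4a2, Fcer1a and Mcpt8 had 0 reads in all groups, and so did the neutrophil markers Ly6g, Mpo, Retnlg and Cxcr2 and the megakaryocyte marker Gp9. The whole megakaryocyte list, however, summed to 182 to 232 CPM in unstimulated libraries, led by Vwf (mean 169 CPM). In LPS-primed libraries it summed to 777 to 1947 CPM, led by Pf4 (mean 1197 CPM). The T and NK cell list summed to at most 5.64 CPM and the stromal list to at most 10.4 CPM in any library, while the dendritic cell list summed to 105 to 408 CPM, nearly all of it Bst2, which macrophages also express. Some list members moved with LPS. Ighm, an immunoglobulin gene of B cells, had a mean of 98.1 CPM in unstimulated, 19.7 in LPS-stimulated and 0.109 in LPS-primed BMDMs and 5 of the 10 B cell genes had reads in unstimulated cells, 2 of them at a mean of 1 CPM or more, while Ms4a1, Pax5, Igll1 and Ebf1 had 0. The summed B cell list ranged from 29.0 to 168 CPM in unstimulated and from 0.612 to 1.36 CPM in LPS-primed libraries. The summed neutrophil list, nearly all of it Mmp8, ranged from 3.49 to 6.95 CPM in unstimulated and from 19.9 to 176 CPM in LPS-primed libraries. In bulk RNA, fewer cells of a type and less RNA per cell cannot be told apart, and the part of other cells in the levels below was not tested.

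Eicosanoids are signalling lipids made from arachidonic acid. Cytosolic phospholipase A2 (Pla2g4a) frees arachidonic acid from membranes, the constitutive and the inducible cyclooxygenase (Ptgs1 and Ptgs2) turn it into prostaglandin H2, and microsomal prostaglandin E synthase (Ptges) converts that to prostaglandin E2, which acts in macrophages through the cAMP-raising receptors EP2 and EP4 (Ptger2 and Ptger4). In the leukotriene branch 5-lipoxygenase (Alox5) works with its activating protein (Alox5ap), and leukotriene C4 synthase (Ltc4s) adds glutathione. PAF is a related phospholipid mediator, and Pla2g7 is the secreted enzyme that hydrolyses it.

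Promoter sequence is shown for members that changed with LPS priming and whose window held the C/EBP-type or the PU.1-type motif named below. Ltc4s and Pla2g7 also changed with priming, but their windows held neither motif and are not shown. RefSeq windows of 250 bases before the gene start (build GRCm38.p6) existed for 9 of the 10 genes and were searched on both strands. The C/EBP-type motif TTNNGNAA was found in 36.9% of 27025 promoters and in 4 of the 9 windows (Ptgs2, Ptges, Ptger2 and Pla2g4a), a share near that of all promoters. The short PU.1-type core GAGGAA was found in 23.1% of promoters and in 4 of 9 windows (Ptgs1, Ptgs2, Ptges and Alox5), and the GC box GGGCGG in 32.9% and in 5 of 9 (Ptgs2, Ptges, Ptger4, Pla2g7 and Alox5). No window held the cyclic AMP response element TGACGTCA (1.62% of promoters), the AP-1 motif TGANTCA (6.87%) or the NF-kB motif (7.01%) in these letters. For Ptgs2, whose window lies inside an annotated transcript of the gene, only 30 bases are given. The Pla2g7 window also lies inside a transcript, and so do 84 bases of the Ltc4s and 46 of the Ptges window. The windows of these genes are thus not wholly sequence before an annotated transcript, and sequence outside the windows was not searched. Capitals mark the matches to TTNNGNAA or GAGGAA, each line runs 5′ to 3′ on the gene's strand, and a match is a description of the letters, not of binding.
Ptgs2, chr1:150099951-150099980 (plus strand): cgctgcggttcTTGCGCAActcactgaagc
Ptges, chr2:30903344-30903547 (minus strand): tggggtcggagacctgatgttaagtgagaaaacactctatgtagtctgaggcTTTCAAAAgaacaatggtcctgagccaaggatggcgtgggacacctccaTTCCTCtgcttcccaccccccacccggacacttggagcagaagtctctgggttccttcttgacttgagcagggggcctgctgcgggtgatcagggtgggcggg
Ptger2, chr14:44987861-44988110 (plus strand): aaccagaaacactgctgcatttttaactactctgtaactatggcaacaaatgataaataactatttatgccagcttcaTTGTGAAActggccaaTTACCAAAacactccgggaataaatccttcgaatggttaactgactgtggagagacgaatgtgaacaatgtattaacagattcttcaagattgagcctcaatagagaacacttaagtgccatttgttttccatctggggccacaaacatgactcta
Pla2g4a, chr1:149961291-149961540 (minus strand): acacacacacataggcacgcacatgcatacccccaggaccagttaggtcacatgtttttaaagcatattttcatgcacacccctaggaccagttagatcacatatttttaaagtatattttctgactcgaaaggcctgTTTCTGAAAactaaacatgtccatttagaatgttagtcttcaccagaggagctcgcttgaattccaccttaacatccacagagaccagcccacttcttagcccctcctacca
Ptgs1, chr2:36230176-36230425 (plus strand): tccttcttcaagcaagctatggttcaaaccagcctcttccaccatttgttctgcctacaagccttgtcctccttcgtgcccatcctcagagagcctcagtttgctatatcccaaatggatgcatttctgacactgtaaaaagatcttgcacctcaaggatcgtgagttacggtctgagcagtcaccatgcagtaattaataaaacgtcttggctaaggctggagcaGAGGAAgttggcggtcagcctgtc
Alox5, chr6:116461179-116461428 (minus strand): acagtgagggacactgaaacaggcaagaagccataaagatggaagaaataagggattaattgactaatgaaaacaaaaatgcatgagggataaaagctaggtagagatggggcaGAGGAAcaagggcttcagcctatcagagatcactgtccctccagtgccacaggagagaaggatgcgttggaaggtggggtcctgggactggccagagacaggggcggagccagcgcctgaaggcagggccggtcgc

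**Figure D1:**
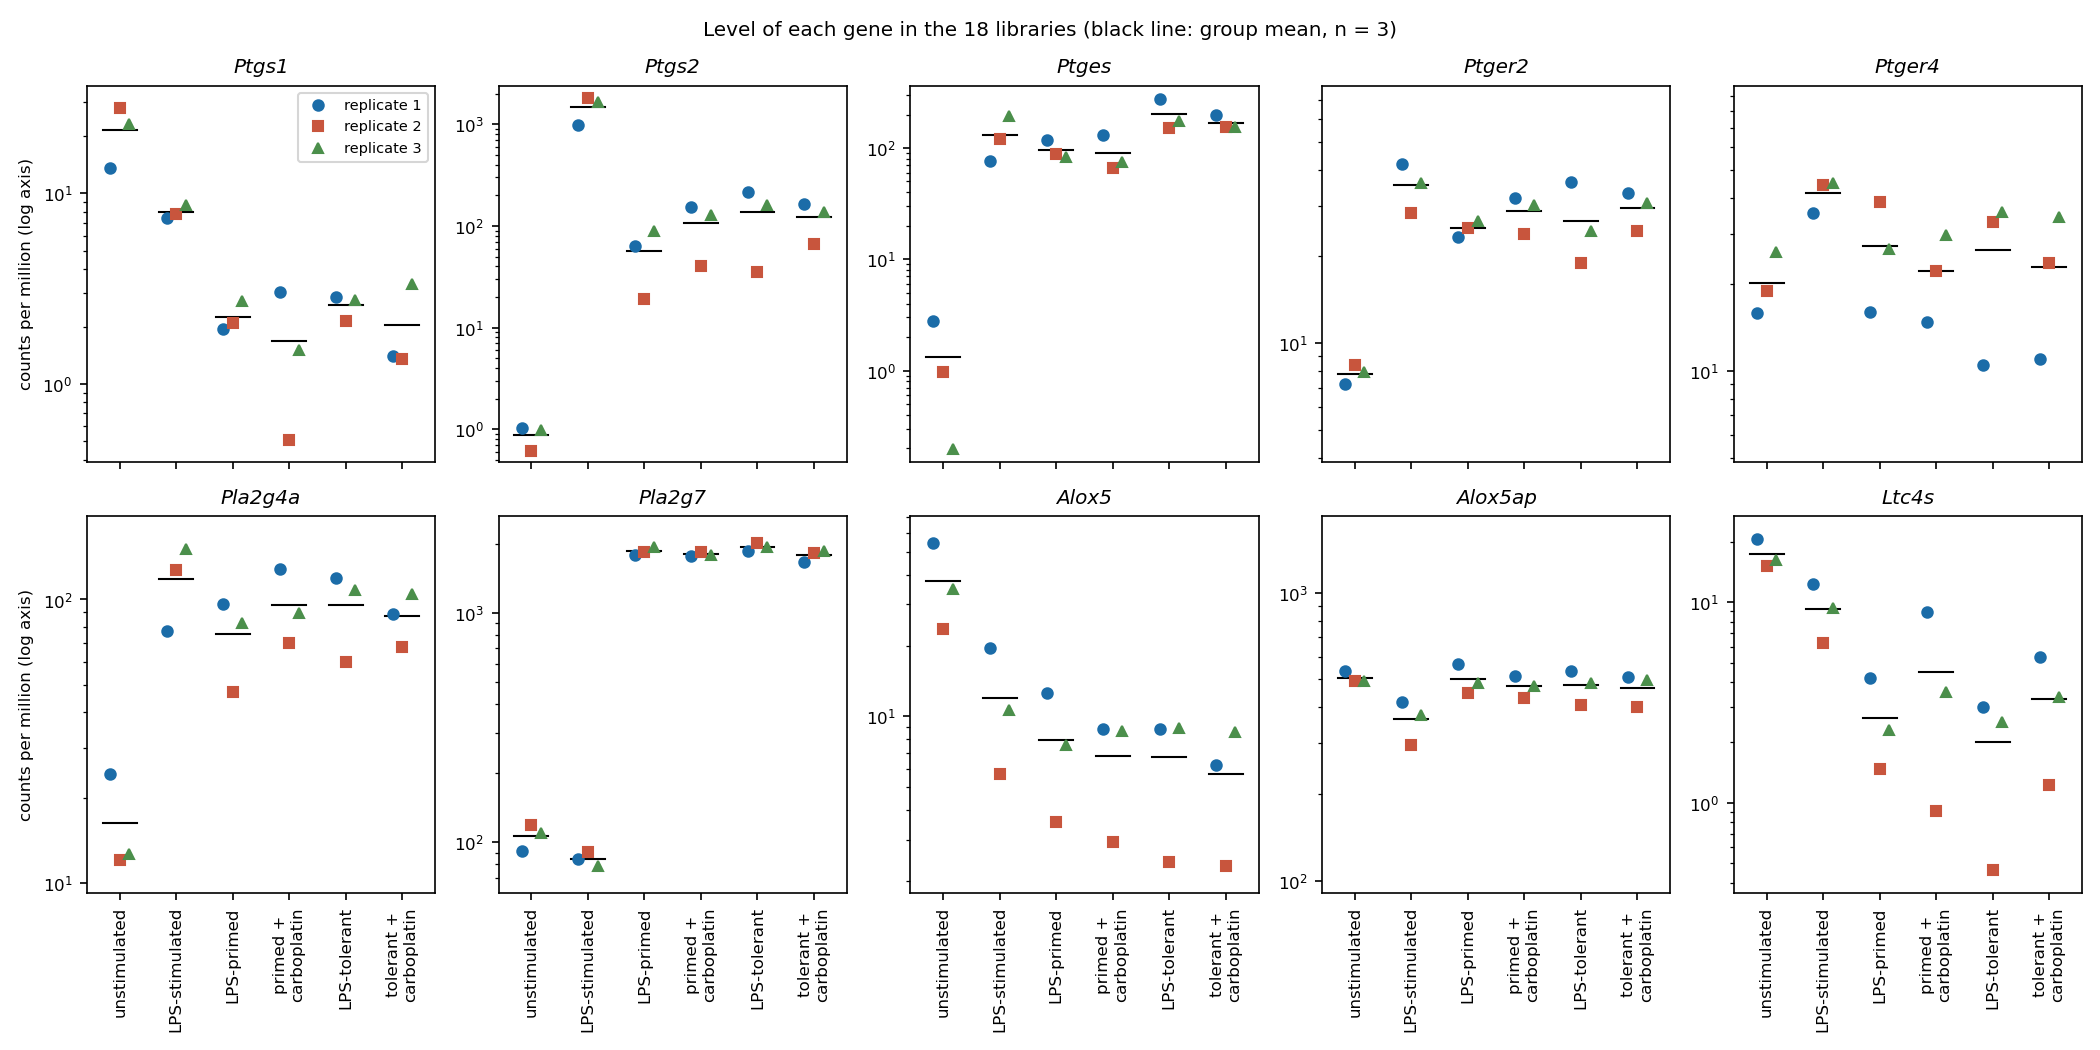
Level of each of the 10 genes in every library, in CPM on a log axis (y), by group (x), with a symbol for each replicate and a black line at the mean of 3. Ptgs2 sits near 1 CPM in unstimulated and at 996.5 CPM or above in LPS-stimulated cells, Pla2g7 sits at 1663 CPM or above in the 4 primed or tolerant groups only, and replicate 2 is the lowest in all 6 groups for Alox5 and Ltc4s.

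Pla2g4a (GRCm39 chr1:149705369-149837053), which supplies the arachidonic acid, was higher in every LPS group than in unstimulated BMDMs. Its level in the 3 replicates was 24.3, 12.1 and 12.7 CPM in unstimulated, 77.2, 127 and 151 CPM in LPS-stimulated, 96.6, 47.2 and 82.4 CPM in LPS-primed and 119, 60.1 and 108 CPM in LPS-tolerant cells. With carboplatin it was 128, 70.2 and 89.7 CPM in LPS-primed and 88.8, 68.0 and 105 CPM in LPS-tolerant cells. The unstimulated libraries lay below all others, while the 5 LPS-treated groups overlapped one another. Pla2g4a lies 138.1 kb from Ptgs2 on the same chromosome.

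The cyclooxygenase genes moved in opposite directions. Ptgs1 (chr2:36120438-36142287), the constitutive enzyme, was at 13.6, 28.2 and 23.1 CPM in unstimulated cells, at 7.43, 7.80 and 8.68 CPM in LPS-stimulated cells and at 1.93, 2.08 and 2.72 CPM in LPS-primed cells. In LPS-tolerant cells it was at 2.86, 2.13 and 2.76 CPM, and with carboplatin at 3.05, 0.505 and 1.51 CPM (primed) and 1.41, 1.34 and 3.35 CPM (tolerant). The unstimulated and the LPS-stimulated libraries thus stood apart from each other and from the other 4 groups, which overlapped at 5 to 34 reads per library.

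Ptgs2 (chr1:149975194-149983978), the inducible enzyme, had the widest range of the 10 genes. It was at 1.03, 0.616 and 0.976 CPM in unstimulated cells, which is 7 to 10 reads, and at 996.5, 1835 and 1665 CPM after 3 h of LPS. Between these levels were LPS-primed cells with 63.0, 19.2 and 89.2 CPM, LPS-tolerant cells with 217, 35.2 and 161 CPM, and the carboplatin groups with 155, 40.1 and 128 CPM (primed) and 165, 66.4 and 137 CPM (tolerant). The 4 intermediate groups overlapped one another and none of them overlapped the unstimulated or the LPS-stimulated group, whose means differed 1718-fold. Replicate 2 was the lowest of its group in 5 of 6 groups and the highest among the LPS-stimulated libraries.

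Compared per kilobase of the canonical transcript, Ptgs1 exceeded Ptgs2 by 21.9-, 75.7- and 39.2-fold in the 3 unstimulated libraries. In every LPS-treated library the order was the other way round. Ptgs2 exceeded Ptgs1 by 81.0-, 142- and 116-fold in LPS-stimulated, by 19.7-, 5.58- and 19.8-fold in LPS-primed and by 45.8-, 9.95- and 35.1-fold in LPS-tolerant cells. The share of Ptgs2 in the sum of both genes, per kilobase, was at most 4.38% in unstimulated and 84.8% or more in the 15 other libraries.

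**Figure D2:**
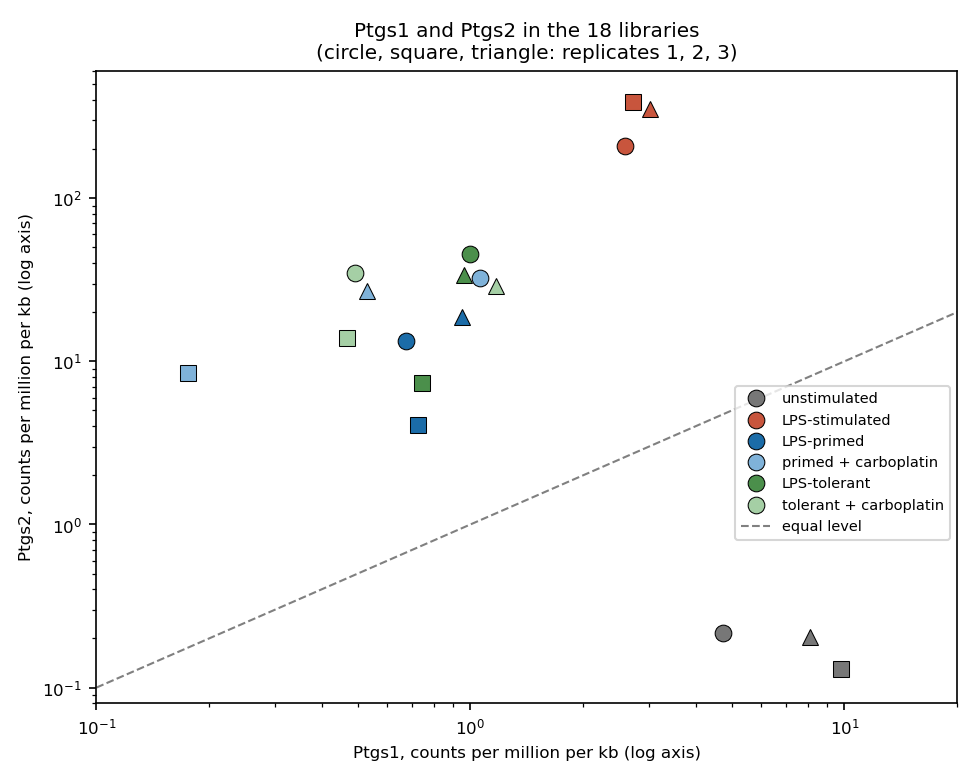
Level of Ptgs2 (y) against Ptgs1 (x) in each of the 18 libraries, both in CPM per kilobase of transcript on log axes, coloured by group and with a symbol for each replicate. The 3 unstimulated libraries lie below the dashed line of equal level and the 15 LPS-treated libraries above it.

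Ptges (chr2:30779483-30820196), which acts directly after the cyclooxygenases, was nearly silent in unstimulated cells. Its level was 2.77, 0.968 and 0.195 CPM there, or 27, 11 and 2 reads. It was 76.1, 121 and 195 CPM in LPS-stimulated, 118, 88.0 and 83.3 CPM in LPS-primed and 278, 152 and 176 CPM in LPS-tolerant cells. Carboplatin groups had 130, 65.6 and 75.4 CPM (primed) and 196, 154 and 153 CPM (tolerant). Unlike the Ptgs2 levels, those of Ptges overlapped between LPS-stimulated and LPS-tolerant cells.

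Of the receptor genes, Ptger2 (chr14:45225652-45241277) had group means up to 4.54-fold apart and Ptger4 (chr15:5236142-5273673) up to 2.06-fold. Ptger2 was at 7.18, 8.36 and 7.90 CPM in unstimulated, 42.0, 28.3 and 36.1 CPM in LPS-stimulated, 23.4, 25.2 and 26.5 CPM in LPS-primed and 36.2, 19.0 and 24.6 CPM in LPS-tolerant cells. Across the carboplatin groups it ranged from 23.9 to 33.2 CPM, and only the unstimulated libraries stood apart. Ptger4 was at 15.9, 18.9 and 25.9 CPM in unstimulated and 35.4, 44.4 and 45.0 CPM in LPS-stimulated cells, which did not overlap. It ranged from 10.5 to 38.7 CPM in the other 4 groups, where replicate 1 was the lowest each time, as it was in all 6 groups.

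In the leukotriene branch, Alox5 and Ltc4s had their highest levels in unstimulated and their next highest in LPS-stimulated cells, the order also seen for Ptgs1. Alox5 (chr6:116387032-116438139) was at 54.4, 23.4 and 34.6 CPM in unstimulated, 19.6, 5.72 and 10.7 CPM in LPS-stimulated, 12.6, 3.55 and 7.55 CPM in LPS-primed and 8.84, 2.41 and 8.96 CPM in LPS-tolerant cells. Ltc4s (chr11:50127288-50129443) went the same way, with 20.6, 15.2 and 16.2 CPM in unstimulated, 12.3, 6.24 and 9.32 CPM in LPS-stimulated, 4.21, 1.47 and 2.32 CPM in LPS-primed and 2.99, 0.464 and 2.54 CPM in LPS-tolerant cells. For both genes the unstimulated libraries were above all others and neighbouring groups further down overlapped. The carboplatin groups ranged from 2.32 to 8.85 CPM for Alox5 and from 0.908 to 8.99 CPM for Ltc4s. Mast cells also express these genes, and of the mast cell and basophil list, with 9 of its 10 genes in the files, 1 gene had reads in unstimulated cells. That gene was Kit, a growth factor receptor gene, and the summed list ranged from 1.14 to 4.31 CPM in unstimulated, from 1.17 to 2.01 in LPS-stimulated and from 0 to 0.101 in LPS-primed libraries. The defining mast cell markers Cpa3, Ms4a2 and Fcer1a were at 0 in every group.

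Alox5ap (chr5:149196003-149227762) was among the steadiest of the genes. It was at 536, 495 and 493 CPM in unstimulated, 419, 297 and 377 CPM in LPS-stimulated, 564, 450 and 486 CPM in LPS-primed and 535, 409 and 486 CPM in LPS-tolerant cells. The carboplatin groups ranged from 400 to 514 CPM. All neighbouring groups in the order of the means overlapped, although the LPS-stimulated libraries all lay below the unstimulated ones, and the highest and lowest group means differed 1.40-fold.

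Pla2g7 (chr17:43878846-43923289) separated the libraries with 24 h of LPS from those without. It was at 91.4, 119 and 109 CPM in unstimulated and 84.8, 90.9 and 78.3 CPM in LPS-stimulated cells, but at 1777, 1844 and 1939 CPM in LPS-primed and 1860, 2020 and 1933 CPM in LPS-tolerant cells. With carboplatin it was at 1774, 1831 and 1776 CPM (primed) and 1663, 1823 and 1851 CPM (tolerant). The 12 libraries that had 24 h of LPS were all at 1663 CPM or above and the 6 that had none of it were all at 119 CPM or below. The LPS-stimulated libraries lay just below the unstimulated ones without overlap. Per kilobase of transcript, the member with the most reads was Alox5ap in unstimulated cells (64.0% of the sum of the 10), Ptgs2 in LPS-stimulated cells (52.7%) and Pla2g7 in the 4 remaining groups (70.0% to 72.8%).

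The first comparison asks what 24 h of LPS priming did. Against unstimulated BMDMs, 5 of the 10 genes rose in LPS-primed cells and 3 fell, where 12.1% and 13.1% of all tested genes did (edgeR quasi-likelihood test, adjusted p under 0.05 over all tested genes). The median log2 fold change (log2FC) was 1.05 for the 10 genes and -0.02 over all tested genes. Ptges rose by 6.21 (SE 0.55, adjusted p = 2.6e-07) and Ptgs2 by 6.03 (SE 0.84, adjusted p = 4.1e-05) on the log2 scale. Pla2g7 rose by 4.12 (SE 0.13, adjusted p = 8.9e-13), Pla2g4a by 2.21 (SE 0.36, adjusted p = 2.2e-04) and Ptger2 by 1.68 (SE 0.23, adjusted p = 3.2e-05). The fallen genes were Ptgs1 with -3.26 (SE 0.45, adjusted p = 3.7e-05), Ltc4s with -2.69 (SE 0.67, adjusted p = 0.0061) and Alox5 with -2.24 (SE 0.60, adjusted p = 0.010). All 8 of these moved in the same direction in 3 of 3 same-numbered pairs. Ptger4 (0.42, SE 0.43) and Alox5ap (-0.02, SE 0.15) did not pass. Leaving replicate 3 out of all groups, a choice made after the data were seen, ended the calls of Alox5 (adjusted p = 0.154) and Ltc4s (adjusted p = 0.157). With all libraries kept and the replicate number as a block, both were called (edgeR, adjusted p = 7.3e-07 and 1.5e-05), where 2235 of 11305 genes were lower.

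The second comparison asks what a single 3 h LPS exposure did. In LPS-stimulated cells 4 of the 10 genes rose and 4 fell relative to unstimulated cells, where 24.3% and 26.9% of all tested genes did, with a median log2FC of 0.36 for the 10 and -0.09 over all. The rises came from 4 genes of prostaglandin E2 synthesis and sensing that had also risen with priming: Ptgs2 with a log2FC of 10.74 (SE 0.94, adjusted p = 9.3e-08), Ptges with 6.65 (SE 0.55, adjusted p = 5.1e-08), Pla2g4a with 2.86 (SE 0.37, adjusted p = 7.4e-06) and Ptger2 with 2.18 (SE 0.23, adjusted p = 7.5e-07). Alox5 fell by 1.66 (SE 0.58, adjusted p = 0.025) and Ptgs1 fell by 1.44 (SE 0.40, adjusted p = 0.0068). Smaller decreases were those of Alox5ap, which fell by 0.48 (SE 0.15, adjusted p = 0.014), and Pla2g7, which fell by 0.33 (SE 0.12, adjusted p = 0.028). Ptger4 (log2FC 1.04, SE 0.43, adjusted p = 0.054) and Ltc4s (-0.91, SE 0.61, adjusted p = 0.22) did not pass. Ptger4 was called by DESeq2 (adjusted p = 0.029) and limma-voom (0.039), as well as with RLE scaling (0.044) and with no filter on low counts (0.040). DESeq2 and limma-voom each called 9 members, 5 higher and 4 lower. Over all genes DESeq2 called 2984 higher and 3040 lower, and limma-voom 2805 and 3225. In a fit of the 6 libraries alone Ptger4 (adjusted p = 0.0049) and Ltc4s (0.036) were called. Both were also called when the replicate number entered as a block, where 29.5% of all genes were higher and 33.8% lower: Ptger4 at 1.07 (SE 0.24, adjusted p = 0.0010) and Ltc4s at -0.99 (SE 0.35, adjusted p = 0.019).

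In the fit without the block, several of the decreases after 3 h lost their calls when libraries were left out, although their log2FC stayed negative each time. It ran from -2.20 to -1.27 for Alox5, from -0.59 to -0.35 for Alox5ap, from -0.42 to -0.20 for Pla2g7 and from -1.67 to -1.16 for Ptgs1. Alox5 did not pass without unstimulated replicate 1 (adjusted p = 0.106), LPS-stimulated replicate 2 (0.107) or LPS-stimulated replicate 3 (0.0747), and Alox5ap did not pass without unstimulated replicate 1 (0.0546) or LPS-stimulated replicate 2 (0.0821). Pla2g7 did not pass without unstimulated replicate 2 (0.175) or 3 (0.0929) or without LPS-stimulated replicate 1 (0.0525) or 3 (0.11), nor with no filter on low counts (0.0801) or a fit of the 6 libraries alone (0.23). Ptgs1 did not pass when replicate 2 (0.0677) or replicate 3 (0.0915) was left out of all groups, and without replicate 3 the number of members called was 4 instead of 8. The 4 genes that rose passed whichever library or replicate number was left out, and Ptger4 also passed without unstimulated replicate 3 (0.0463) or without replicate 1 in all groups (0.00491). With all libraries kept and the replicate number as a block, the 4 decreases were called, where 33.8% of all tested genes were lower. Their adjusted p in that fit was 6.2e-06 for Alox5, 1.7e-04 for Alox5ap, 0.0061 for Pla2g7 and 0.0017 for Ptgs1.

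**Figure D3:**
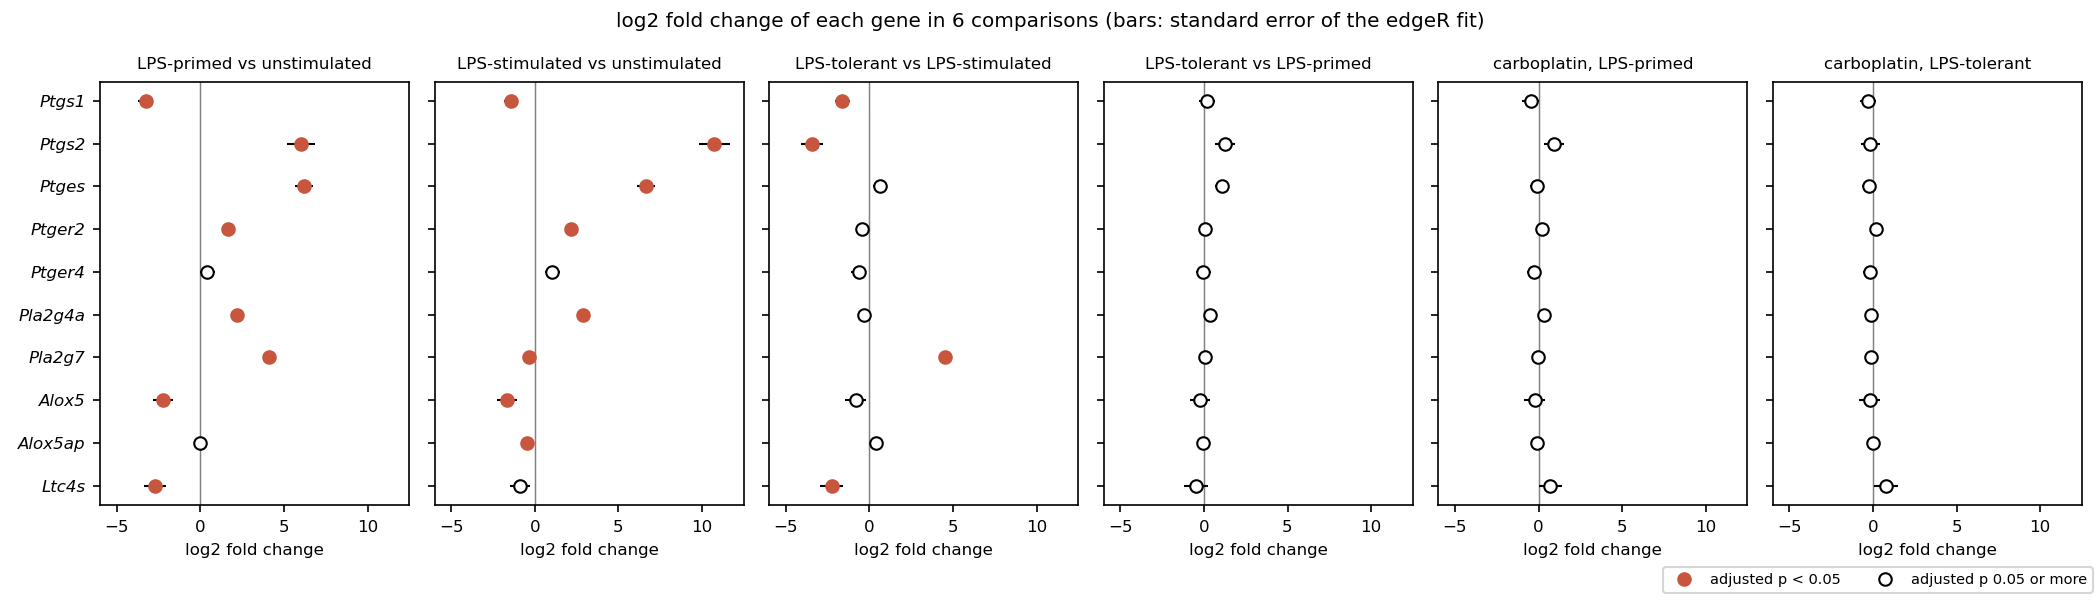
The log2 fold change (x) of each of the 10 genes (y) in 6 comparisons, with bars for the standard error of the edgeR fit and filled points at an adjusted p under 0.05. Filled points are frequent in the comparisons with unstimulated cells, with 8 of 10 in each. Of all tested genes 12.1% rose and 13.1% fell with priming, and 24.3% and 26.9% after 3 h. Filled points are absent for LPS-tolerant against LPS-primed cells (3.6% and 2.71% of all) and for carboplatin (at most 0.0177% and 0.407%).

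The comparison of LPS-tolerant with LPS-stimulated cells asks how 3 h of LPS at 10 ng/ml differed with and without earlier priming. Pla2g7 was higher in LPS-tolerant cells by 4.52 on the log2 scale (SE 0.14, adjusted p = 8.0e-13), the lowest p of all 11305 tested genes. Ptgs2 was 10.9-fold lower (log2FC -3.45, SE 0.64, adjusted p = 4.8e-04), Ltc4s 4.74-fold lower (log2FC -2.24, SE 0.69, adjusted p = 0.017) and Ptgs1 3.09-fold lower (log2FC -1.63, SE 0.44, adjusted p = 0.0078). These made 1 gene higher and 3 lower of 10, where 16.2% and 18.3% of all tested genes were, and the median log2FC was -0.54 for the 10 and 0.00 over all. Ptges (0.62, SE 0.40, adjusted p = 0.24) and Pla2g4a (-0.31, SE 0.34, adjusted p = 0.52) did not pass.

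With the replicate number as a block the same comparison called 8 of the 10 genes, 2 higher and 6 lower, where 22.9% and 24.7% of all genes were. The additional calls were Alox5ap, higher by 0.39 (SE 0.09, adjusted p = 0.0020), and Alox5, Ptger4 and Ptger2, lower with log2FC values of -0.85 (SE 0.26, adjusted p = 0.011), -0.78 (SE 0.24, adjusted p = 0.013) and -0.43 (SE 0.17, adjusted p = 0.044). Without LPS-tolerant replicate 2, in which Ltc4s had 5 reads, Ltc4s did not pass (log2FC -1.74, adjusted p = 0.0727). Without replicate 3 in all groups 2 members were called, since Ptgs1 (adjusted p = 0.104) and Ltc4s (0.157) did not pass. Ptger2 passed without LPS-tolerant replicate 1 (adjusted p = 0.0188), and Alox5ap passed without LPS-tolerant replicate 2 (0.0329) or LPS-stimulated replicate 1 (0.0265).

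LPS-tolerant and LPS-primed cells differ by the second LPS, the medium change before it and the added 3 h. None of the 10 genes was called by edgeR, DESeq2 or limma-voom, where edgeR called 3.6% of all tested genes higher and 2.71% lower, and at an unadjusted p under 0.05 there was 1 member, Ptges. The LPS-tolerant libraries lay above the LPS-primed ones for this gene, the 1 member of 10 without overlap where 26.2% of all tested genes had none, and the log2FC was 1.06 (SE 0.40, 95% interval 0.22 to 1.91, adjusted p = 0.13). With the replicate number as a block, where 9.67% and 8.32% of all genes were called higher and lower, Ptges was the 1 member called (log2FC 1.04, SE 0.31, adjusted p = 0.028), as it was without replicate 1 in all groups (adjusted p = 0.0428). Ptgs2 was at a higher value in 3 of 3 same-numbered pairs (log2FC 1.26, SE 0.60, 95% interval -0.0016 to 2.52, adjusted p = 0.24). With the block its adjusted p was 0.054, and without replicate 2 in all groups it passed (adjusted p = 0.0472). Pla2g7 had a log2FC of 0.06 with a 95% interval from -0.18 to 0.31, and Alox5ap of -0.07 with an interval from -0.39 to 0.25.

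A direct test compared the change after the second LPS (LPS-tolerant against LPS-primed) with the change after the first (LPS-stimulated against unstimulated). For 4 of the 10 genes the change after the second LPS was lower and for 0 it was higher, where 13.3% of all tested genes were lower and 10.5% higher on this measure (edgeR), and 6 members had an unadjusted p under 0.05. DESeq2 called 4 lower and 2 higher (1698 and 1278 over all genes) and limma-voom 4 lower and 0 higher (1523 and 1218 over all genes). The 4 genes were the ones that rose after the first LPS. On the log2 scale the difference of the changes was -9.48 for Ptgs2 (SE 1.06, adjusted p = 4.8e-06), -5.59 for Ptges (SE 0.67, adjusted p = 1.0e-05), -2.52 for Pla2g4a (SE 0.50, adjusted p = 0.0012) and -2.10 for Ptger2 (SE 0.31, adjusted p = 9.5e-05). The second LPS started from a raised level for all 4: the LPS-primed mean was 57.1 CPM for Ptgs2 against 0.873 in unstimulated cells, and 96.5 against 1.31 CPM for Ptges. The median over the 10 genes was -0.34 and over all tested genes 0.06. Without replicate 3 in all groups Pla2g4a did not pass (adjusted p = 0.0863), and without unstimulated replicate 1 Ptgs1 (1.87, adjusted p = 0.0369) and Pla2g7 (0.49, adjusted p = 0.0378) did.

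**Figure D4:**
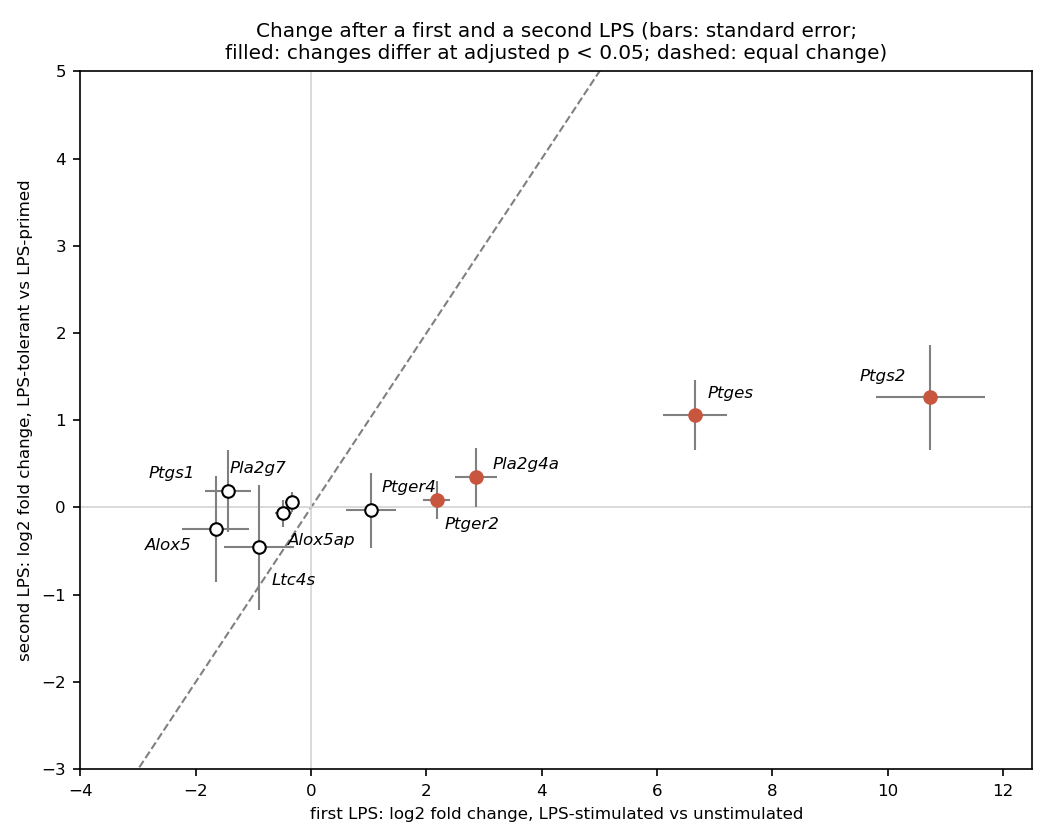
The log2 fold change after the second LPS (LPS-tolerant against LPS-primed, y) against that after the first (LPS-stimulated against unstimulated, x) for the 10 genes, with standard errors. Filled points are the 4 genes whose changes differed at an adjusted p under 0.05 (Ptgs2, Ptges, Pla2g4a and Ptger2), and all 4 lie to the right of the dashed line of equal change.

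Carboplatin changed none of the 10 genes detectably. In LPS-primed cells 0 members were called by edgeR, DESeq2 or limma-voom and 0 had an unadjusted p under 0.05, where edgeR called 0% of all tested genes higher and 0.372% lower (776 genes had an unadjusted p under 0.05, DESeq2 called 6 higher and 115 lower, and limma-voom 0 higher and 40 lower). Ptgs2 had the largest difference of the 10, above its same-numbered LPS-primed library in 3 of 3 pairs (log2FC 0.91, SE 0.60, 95% interval -0.35 to 2.17, adjusted p = 0.89). These values are without the block. With the replicate number as a block Ptgs2 was at 0.92 with a smaller SE of 0.42 (adjusted p = 0.34). The blocked fit called 0 members in either state. It called 0.239% of all tested genes higher and 1.53% lower in LPS-primed cells, and 0.336% and 1.43% in LPS-tolerant cells. For Pla2g7 the interval was narrow, from -0.29 to 0.20, and for Alox5ap it ran from -0.40 to 0.24. In LPS-tolerant cells again 0 members were called by any of these tools and 0 had an unadjusted p under 0.05, where 0.0177% of all tested genes were higher and 0.407% lower (DESeq2 called 19 higher and 134 lower, limma-voom 1 higher and 23 lower). Here Ptgs2 had a log2FC of -0.16 (95% interval -1.40 to 1.08), Ptges of -0.26 (-1.10 to 0.57) and Pla2g7 of -0.12 (-0.37 to 0.12), and its 3 libraries with carboplatin, 1851 CPM at most, lay below those without, 1860 CPM at least, as 1 of 10 members against 11.4% of all tested genes without overlap. Ltc4s had 0.71 (-0.73 to 2.15) in primed and 0.76 (-0.75 to 2.26) in tolerant cells, so differences of over 4-fold were within the interval for this gene. The test of whether the carboplatin effect differed between tolerant and primed cells called 0 members and 0 of 11305 genes (0% higher and 0% lower by edgeR, 0 also by DESeq2 and limma-voom), with an unadjusted p under 0.05 for 131 genes and 0 members. For Ptgs2 that difference was -1.07 with a 95% interval from -2.83 to 0.69.

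Beyond the 10 genes, a list of 95 other genes of these pathways was read in the same fits. All 95 were in the files, 82 had a read in some library and 58 passed the filter. In LPS-primed against unstimulated cells 12 of the 58 rose and 16 fell, against 12.1% and 13.1% of all tested genes, with a median log2FC of -0.12. With the replicate block 14 rose and 21 fell, where 2132 and 2235 of 11305 genes did. In LPS-stimulated cells 10 rose and 21 fell against 24.3% and 26.9% of all (median -0.52). The block gave 12 and 26 here, against 29.5% and 33.8% of all. In LPS-tolerant against LPS-stimulated cells 13 were higher and 15 lower against 16.2% and 18.3% of all (median 0.21). Blocked, these were 19 and 16, against 22.9% and 24.7% of all. Between LPS-tolerant and LPS-primed cells 1 was higher and 2 were lower, against 3.6% and 2.71% of all. With the replicate block they were 4 and 6, where the shares of all genes were 9.67% and 8.32%.

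For carboplatin edgeR called 0 of the 58 in either state, and limma-voom also called 0. At an unadjusted p under 0.05 edgeR had 5 in LPS-primed and 4 in LPS-tolerant cells, and 12 and 5 with the replicate block. DESeq2 called 1 lower in LPS-primed and 2 lower in LPS-tolerant cells. The same numbers were called with the replicate block, where 0.239% of all tested genes were higher and 1.53% lower in LPS-primed and 0.336% and 1.43% in LPS-tolerant cells. The genes concerned, which were singled out after their values were seen, were Tbxas1, the thromboxane synthase gene, in both states and Dpep2, a dipeptidase gene, in LPS-tolerant cells. Tbxas1 was at 101, 79.9 and 70.5 CPM in LPS-primed cells and at 60.5, 45.0 and 51.3 CPM with carboplatin, and at 93.6, 78.8 and 77.4 CPM in LPS-tolerant cells and at 57.9, 48.0 and 46.0 CPM with carboplatin. The libraries did not overlap in either state. Its log2FC was -0.68 (SE 0.17, adjusted p = 0.13) in LPS-primed and -0.72 (SE 0.17, adjusted p = 0.094) in LPS-tolerant cells, and with the block -0.68 (SE 0.12, adjusted p = 0.0047) and -0.72 (SE 0.12, adjusted p = 0.0026). For Dpep2 in LPS-tolerant cells the log2FC was -0.51 in both fits, without the block at an SE of 0.13 (adjusted p = 0.15) and blocked at 0.11 (adjusted p = 0.017).

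The largest decreases in this list were in genes of inactivation and transport. Hpgd, which encodes the enzyme that inactivates prostaglandin E2, was at 35.2, 58.4 and 128 CPM in unstimulated, 15.1, 13.5 and 19.3 CPM in LPS-stimulated and 0.114, 0.122 and 0.705 CPM in LPS-primed cells. The last values are 1, 1 and 7 reads, and the ratio of summed reads between unstimulated and LPS-primed cells was 221 with a counting interval from 116 to 484 (95%, exact, counting error only; adjusted p = 1.0e-07 for the fitted change). The fall after 3 h had a log2FC of -2.21 (SE 0.42, adjusted p = 3.5e-04). Slco2b1, an organic anion transporter gene, had 74, 416 and 185 reads in unstimulated and 1, 1 and 0 in LPS-primed cells, a ratio of 290.0 with a counting interval from 79.8 to 2400. Ephx1, an epoxide hydrolase gene, was at 73.2, 77.4 and 93.7 CPM in unstimulated and 6.14, 4.65 and 8.76 CPM in LPS-primed cells, a log2FC of -3.63 (SE 0.27, adjusted p = 3.0e-08). Of the 12 tested genes of inactivation and transport 2 rose and 4 fell with priming (12.1% and 13.1% of all tested genes), and 2 rose and 6 fell after 3 h (24.3% and 26.9% of all). Among the latter, Abcc4, a transporter that exports prostaglandins, rose by 1.99 (SE 0.26, adjusted p = 9.2e-06).

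In the receptor list 3 of 5 tested genes rose with priming and 0 fell, against 12.1% and 13.1% of all tested genes. Ltb4r1, the leukotriene B4 receptor gene, had 4, 1 and 2 reads in unstimulated and 65, 37 and 46 in LPS-primed cells, a ratio of 24.6 with a counting interval from 11.7 to 62.4 (adjusted p = 3.1e-05 for the fitted change). Cysltr1, the cysteinyl leukotriene receptor gene, was at 8.62, 10.9 and 11.2 CPM in unstimulated, 29.4, 52.1 and 68.6 CPM in LPS-primed, 8.57, 24.2 and 18.6 CPM in LPS-tolerant and 4.36, 3.34 and 2.65 CPM in LPS-stimulated cells. It rose with priming (log2FC 2.29, SE 0.42, adjusted p = 5.6e-04) and was lower in LPS-tolerant than in LPS-primed cells (-1.54, SE 0.40, adjusted p = 0.031). Both leukotriene receptor genes were thus higher in LPS-primed cells, in which Alox5 and Ltc4s were lower. Ptafr, the PAF receptor gene, was at 59.1, 112 and 77.0 CPM in unstimulated and 232, 241 and 238 CPM in LPS-stimulated cells, with 45.4 to 71.2 CPM in LPS-primed and LPS-tolerant cells, and its change after the second LPS was lower than after the first (-1.53, SE 0.35, adjusted p = 0.0042).

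The genes that make or precede these lipids moved in both directions. For the counts that follow, 12.1% of all tested genes rose and 13.1% fell with priming and 24.3% and 26.9% did after 3 h. Of 13 tested genes of PAF metabolism 4 rose and 0 fell with priming. Lpcat2, which makes PAF in activated macrophages, was at 98.4, 107 and 102 CPM in LPS-stimulated and 333, 357 and 283 CPM in LPS-tolerant cells (log2FC 1.66, SE 0.15, adjusted p = 3.4e-07). It was thus higher in the same cells as Pla2g7, which degrades PAF. Of 15 tested phospholipase and precursor genes 1 rose and 8 fell with priming. The riser was the arachidonic acid acyl-CoA synthetase gene Acsl4 (log2FC 1.92, SE 0.21, adjusted p = 2.7e-06), which also rose after 3 h (1.85, SE 0.21, adjusted p = 1.5e-06). Dagla, a diacylglycerol lipase gene, was higher in LPS-tolerant than in LPS-primed cells (1.13, SE 0.27, adjusted p = 0.019), and Pla2g15, a lysosomal phospholipase gene, was lower (-1.01, SE 0.24, adjusted p = 0.018). Pla2g4b had at most 3 reads in each LPS-stimulated library against 9 to 12 in unstimulated ones, a ratio of 5.39 with a counting interval from 2.23 to 15.7 (adjusted p = 0.039 for the fitted change). Of 7 other tested prostanoid enzyme genes 1 rose and 2 fell with priming and 1 rose and 3 fell after 3 h, the riser being the cytosolic synthase gene Ptges3 in the latter (1.70, SE 0.41, adjusted p = 0.0025), and of 6 further lipoxygenase pathway genes 1 rose and 2 fell and 0 rose and 2 fell. In the test of the second against the first LPS, 4 of the 58 were higher and 5 lower, against 10.5% and 13.3% of all tested genes. First among the higher were Dagla (2.40, SE 0.38, adjusted p = 1.9e-04), Pla2g2e (2.09, SE 0.67, adjusted p = 0.032) and Fads1 (1.75, SE 0.37, adjusted p = 0.0023). Abcc4 (-2.10, SE 0.36, adjusted p = 4.0e-04) was first among the lower, which included Acsl4 (-1.21, SE 0.28, adjusted p = 0.0049).

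The nearest genes to each member over the 18 libraries were ranked by Pearson's r of log2(CPM + 1). Spearman's rho was lower for most pairs, down to 0.728 for Ptger2 and Abtb2, 0.74 for Pla2g7 and Clec4a2 and 0.781 for Ptges and Slc2a1. The genes most like Ptgs2 were Nfkbiz (0.982), an inducible regulator of the NF-kB response, and Cav1 (0.977), and those most like Ptges were Tarm1 (0.987) and Slc2a1 (0.981), a glucose transporter gene. Ptger2 was closest to Abtb2 (0.961) and the chemokine gene Cxcl2 (0.961), Pla2g4a to Jmjd6 (0.969) and the arginine transporter gene Slc7a2 (0.962), and Pla2g7 to Clec4a2 (0.988) and Mgarp (0.988). Among the genes that fell, Ptgs1 was closest to Slc36a2 (0.952) and Hpgd (0.949), Alox5 to L1cam (0.944) and Slc7a4 (0.939), and Ltc4s to L1cam (0.931) and Vwf (0.922), while Ptger4 was closest to Nvl (0.897) and Aqr (0.883) and Alox5ap to Txndc15 (0.943) and Gpsm3 (0.931). These values describe 18 libraries that share 6 groups and 3 replicate numbers. Vwf, listed among the megakaryocyte markers, had a mean of 169 CPM in unstimulated and 49.2 in LPS-primed cells, while Pf4 of the same list had 24.5 and 1197 CPM. Of that list 6 of 10 genes had reads in unstimulated cells, summing to 182 to 232 CPM against 777 to 1947 CPM in LPS-primed libraries, and Gp9 was at 0 in every group.

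The exons of 9 of the 10 genes share 89 to 1015 bases with an exon annotated on the opposite strand, among them Ptgs2 with Ptgs2os (476 bases) and Ptger4 with Ttc33 (229 bases). Since the sources do not state whether counting used the strand, reads of such pairs cannot be told apart in these values. Ptgs2os and Ptgs2os2 were not analysed here.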

How the data were processed

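RNA-Seq was measured in 18 libraries of BMDMs (6 groups, 3 replicates each). Per the study's methods, libraries were made with a stranded mRNA kit and sequenced as paired ends, and the authors used HISAT2 for alignment to GRCm39 and HTSeq-count for counting. They deposited raw counts per gene symbol, without normalization. Program versions, annotation and strand setting are not given in the sources used here. The 5 summary rows of each file held 41.5% to 46.9% of read pairs and were left out. Groups came from the sample labels, and the 3 h of the single LPS from the study's scheme.

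The counts were fitted with edgeR 4.0.16 in R 4.3.3 (TMM scaling, minimum count 10 in filterByExpr, quasi-likelihood F test, all 18 libraries in 1 fit with a mean per group, prior count 0.125). P-values were adjusted by Benjamini-Hochberg over all tested genes and called under 0.05. The SE is the log2FC divided by the root of F, and 95% intervals use the t quantile of the fit. CPM are read counts per TMM-scaled library size, divided by the length of the GENCODE canonical transcript where genes are compared with each other. Gene positions are from GENCODE vM39 (GRCm39), and promoter windows from RefSeq (GRCm38.p6). At these depths a gene at 1 CPM of the library size before TMM scaling has 7 to 15 reads, and intervals on reads cover counting error only. The fit was tested on simulated data. The 10 genes, the pathway and marker lists and the tests were chosen with earlier results of these data known. Named genes were all 10 members, the pathway genes with the largest called changes (up to 3 in each direction per comparison), and for each member the 2 genes with the highest correlation.

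Same-numbered libraries deviated together: their deviations from the group means correlated above 0.1 in 44 of 45 pairs (mean 0.349, lowest 0.0631), and in every pair of the 6 comparisons of 2 groups and of the carboplatin interaction, so the replicate number was treated as pairing there and the blocked value is printed where it changes a call. The labels do not say what a number shares. Alternatives were DESeq2 1.42.0, limma-voom (limma 3.58.1), RLE scaling, library size alone, other filters, fits of a comparison's own libraries, prior count 2, the study's limits, and leaving out each library; leaving a replicate number out of all groups was added after the data were seen.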

Additional observations from a re-analysis of the deposited data

Results flagged for a closer look

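The change after the second LPS differed from the change after the first for 4 of the 10 genes, by the edgeR test of the difference itself, where 13.3% of all tested genes were lower and 10.5% higher. Blocking on the replicate number gave 9 calls, where 1939 of 11305 genes were called higher and 2152 lower. The difference (second minus first, log2 scale) was -9.48 for Ptgs2 (SE 1.06, adjusted p = 4.8e-06), -5.59 for Ptges (SE 0.67, adjusted p = 1.0e-05), -2.10 for Ptger2 (SE 0.31, adjusted p = 9.5e-05) and -2.52 for Pla2g4a (SE 0.50, adjusted p = 0.0012). The second LPS started from a raised level for all of them. Ptges had 2 to 27 reads in unstimulated libraries, and its highest group mean was in LPS-tolerant cells (201.6 CPM against 130.6 in LPS-stimulated cells).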

How the results depend on the processing

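Of 1308 log2FC values of the 10 genes recomputed under an alternative, 1200 kept their direction and side of the threshold, 25 lost and 35 gained a call, and 48 changed sign, all 48 in genes that were not called. With the study's limits 4 genes passed between LPS-stimulated and unstimulated cells instead of 8. Between LPS-tolerant and LPS-stimulated cells 7 instead of 4 passed at an adjusted p under 0.25, and with the replicate block 8 passed. Between LPS-tolerant and LPS-primed cells 1 passed instead of 0 in a fit of those libraries alone, 1 with the replicate block and 2 at an adjusted p under 0.25. For the second against the first LPS, 7 passed instead of 4 with library size alone, which shifted the median of all genes by 0.238, 2 with at least 10 reads in every library, where fewer members were tested, and 8 at an adjusted p under 0.25. In that test 1 pair of same-numbered libraries correlated at 0.0631, under the limit of 0.1 set for every pair, so the block is given in these closing sections only. It gave 9 calls, 4 higher (Ptgs1, Pla2g7, Alox5 and Alox5ap) and 5 lower (the 4 of the report and Ptger4), where 1939 and 2152 of 11305 genes were called. Among the 10 genes the block changed no call other than these and those in the report. Library size alone shifted the median of all genes by -0.237 for priming and by -0.337 for 3 h of LPS, and no called gene changed direction. Leaving out a library, or a replicate number in all groups (chosen after the data were seen), gave 6 to 8 calls for priming, 4 to 9 for 3 h of LPS, 2 to 5 for LPS-tolerant against LPS-stimulated, 0 to 1 for LPS-tolerant against LPS-primed, 3 to 6 for the second against the first LPS and 0 for carboplatin. The same fits called 1318 to 2790 of all genes for priming and 3455 to 6138 for 3 h of LPS. For LPS-tolerant they called 1959 to 4061 against LPS-stimulated and 27 to 737 against LPS-primed. The second against the first LPS had 976 to 3022, and carboplatin 0 to 38 in primed and 0 to 36 in tolerant cells. Under the other settings above, the block apart, counts over all genes are not printed, and those member counts do not set the 10 genes apart. The lowest counts for priming, 3 h of LPS, tolerant against stimulated and second against first came without replicate 3, where each group had 2 libraries and fewer genes of the whole table were called too, and the cause was not tested.

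Signs changed in uncalled genes for these log2FC values. With limma-voom Ptgs2 was at 0.13 for carboplatin in tolerant cells, and with library size alone Ptger2 was at -0.028 and Pla2g7 at -0.036 between LPS-tolerant and LPS-primed cells and Alox5ap at 0.041 for carboplatin in tolerant cells. When libraries were left out, carboplatin values in tolerant cells ran from -0.62 to 0.33 for Ptgs2, -0.43 to 0.037 for Ptges, -0.041 to 0.44 for Ptger2, -0.60 to 0.13 for Ptger4, -0.38 to 0.053 for Pla2g4a, -0.66 to 0.16 for Alox5 and -0.12 to 0.078 for Alox5ap. In primed cells they ran from -0.45 to 0.090 for Ptges, -0.55 to 0.064 for Ptger4, -0.58 to 0.27 for Alox5, -0.15 to 0.016 for Alox5ap and -0.26 to 1.21 for Ltc4s. LPS-tolerant against LPS-primed values ran from -0.23 to 0.29 for Ptger2, -0.31 to 0.34 for Ptger4, -0.60 to 0.25 for Alox5, -0.16 to 0.029 for Alox5ap and -0.87 to 0.048 for Ltc4s. Pla2g4a ran from -0.72 to 0.0048 between LPS-tolerant and LPS-stimulated cells, and Alox5ap from -0.12 to 0.050 for priming. Depth limited Ptgs1, Ltc4s and unstimulated Ptgs2 and Ptges most, with 2 to 27 reads in their lowest groups.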
